A study of Homo sapiens with 9 samples.

Results

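The genes described here encode aminoacyl-tRNA synthetases, the enzymes that join each amino acid to its transfer RNA (tRNA). They were chosen by symbol and not by their measured values, though with earlier results of these data known. There were 34 genes, of 18153 in the gene-level table, 20 for the cytosolic enzymes and 14 for the mitochondrial enzymes, which carry the suffix 2. All 34 were found. Symbols are those of the table. RefSeq now writes 18 of them with an added 1 (AARS1 for AARS).

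The cells were labelled Huh-7, an established human hepatoma line, each line made stable with a lentivirus that expresses a short hairpin RNA (shRNA). The hairpin targeted NDRG3, HIF-1A (the gene HIF1A) or, in the control line, GFP. Expression was measured on 9 Illumina arrays, and each array was a group of its own. On a platform of 6 arrays these were hypoxic (1% oxygen) shNDRG3 cells at 6 h and 12 h, hypoxic shHIF-1A cells at 12 h, hypoxic shGFP cells at 6 h and 12 h, and normoxic shGFP cells, 1 array labelled for both times. On a second platform of 3 arrays they were hypoxic shNDRG3 cells, hypoxic shGFP cells and normoxic shGFP cells, each at 24 h. All groups thus carry an shRNA, and no array of untransduced cells or of knockdown cells in normoxia was analysed here. The labels name neither the hairpin sequences nor whether a line was 1 clone or a pool. No condition had a second array, so a difference between a pair of arrays has no replicate check and no test, and precision is limited by how few arrays there are. Nothing in the labels says that arrays came from separate cultures. In these bulk samples fewer cells of a type and less RNA per cell cannot be told apart. Every difference was taken within a platform, and time and platform cannot be told apart at 24 h.

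A synthetase activates its amino acid with ATP and passes it to the matching tRNA, so these enzymes set the supply of charged tRNA for the ribosome. The nucleus encodes one set for the cytosol and a largely separate set for the mitochondrial ribosome; GARS and KARS make both forms from 1 gene each. Uncharged tRNA activates the kinase GCN2, which through the transcription factor ATF4 raises genes of amino acid synthesis, amino acid transport and many cytosolic synthetases. This circuit is a branch of the integrated stress response. ATF4 binds amino acid response elements with the core TGATGNAA (TTNCATCA on the other strand).

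The cores found near the starts of the synthetase genes are shown first because they are unevenly spread over the family. RefSeq promoter windows (GRCh38.p14, from 250 bases before to 50 bases after a start) were matched for 29 members; no window was matched for DARS, LARS, VARS, YARS or AARS2. Each of the following runs of 30 bases reads 5′ to 3′ on the gene's strand, with the core in capitals.
AARS: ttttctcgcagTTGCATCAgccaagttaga
CARS: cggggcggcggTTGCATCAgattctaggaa
GARS: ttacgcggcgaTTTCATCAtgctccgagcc
IARS: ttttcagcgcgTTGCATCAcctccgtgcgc
MARS: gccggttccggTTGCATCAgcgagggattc
NARS: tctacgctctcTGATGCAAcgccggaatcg
TARS: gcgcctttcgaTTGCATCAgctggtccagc
YARS2: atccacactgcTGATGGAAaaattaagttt
Distances below run from the start to the first base of the core as printed, so the cores of CARS and MARS run across the start. The AARS run lies on the minus strand at chr16:70289675-70289704, with its core 187 bases before the start. The CARS run lies on the minus strand at chr11:3057407-3057436, with its core 2 bases before the start, and the GARS run on the plus strand at chr7:30594834-30594863, with its core 33 bases before it. The IARS run (chr9:92293692-92293721, minus strand) and the MARS run (chr12:57488053-57488082, plus strand) have their cores 13 and 4 bases before the start. The TARS run (chr5:33440956-33440985, plus strand) and the NARS run (chr18:57621804-57621833, minus strand) have theirs 2 and 14 bases after it. The YARS2 run (chr12:32756076-32756105, minus strand) has its core 197 bases before the start. Of the 16 cytosolic genes with a window, 7 held the core on either strand, and of the 13 mitochondrial genes 1 did. All 7 cytosolic genes belong to the 13 that the literature names as ATF4 targets, 10 of which had a window; of the other cytosolic genes 6 had a window and 0 held the core. By window, 7 of 21 cytosolic windows (33.3%) and 1 of 17 mitochondrial windows (5.88%) held the core, beside 3.62% of all 35116 RefSeq windows. CARS, GARS and TARS each had 2 windows and held the core in 1 of them. The literature may have named ATF4 targets partly from such sites, so this division is not independent of that list. A match describes letters in a window and not binding.

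The targeted genes were low in the lines labelled for them. NDRG3 intensity was 268, 215 and 233 in shNDRG3 cells at the 3 times of hypoxia, against 1278, 1456 and 1712 in shGFP cells. HIF1A was 231 in shHIF-1A cells at 12 h, against 897 in shGFP cells. CA9, a hypoxia-induced carbonic anhydrase gene, was 7582 at 6 h and 14246 at 12 h of hypoxia in shGFP cells, against 940 in normoxia, and 4600 at 24 h, against 472. The shNDRG3 array at 24 h stood apart in CA9 and HIF1A. Its CA9 intensity was 518 and its HIF1A intensity 331, against 4600 and 572 in shGFP cells at 24 h of hypoxia. Its CA9 level was thus near that of normoxia. NDRG1, also higher in hypoxia in shGFP cells, was 2576 on that array, between 919 in normoxia and 4447 in shGFP hypoxia at 24 h. The fits for the knockdowns are also given without the 24 h arrays. Of 18 hepatocyte markers, 1 to 4 reached the filter value on an array (127.3 on the first platform and 210.2 on the second, the 40th percentile of each). Their summed intensity ran from 1886 to 2000 over the arrays of the first platform, and from 3115 to 3292 over those of the second. ALB was 160 to 229 on the 9 arrays. AFP was 98 to 187, below the filter value on each. No hepatocyte marker was above 345, the value of APOA1 in shNDRG3 cells at 24 h. The defining markers of the labelled cell type were thus near background and do not bear out the label. Some markers of other cell types differed with oxygen. The macrophage marker CD68 was 895 and 1585 at 6 h and 12 h of hypoxia in shGFP cells, against 739 in normoxia, and 1439 at 24 h, against 640, but 572 in shNDRG3 cells at 24 h. The fibroblast collagen gene COL1A1 was 412 and 300 at 6 h and 12 h, against 449, and 315 at 24 h, against 518. The other fibroblast markers did not follow it. PDGFRB was 152 and 142 at 6 h and 12 h, against 137, and 226 at 24 h, against 235. COL1A2, COL3A1, DCN and LUM were below the filter value on all shGFP arrays. PTPRC, a defining marker of leukocytes, was 90 to 106 on the first platform and 152 to 161 on the second, below the filter value of each. The part of these markers in the differences below was not tested.

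In control cells low oxygen went with higher levels of a few cytosolic synthetases and lower levels of several mitochondrial ones. AARS, CARS and WARS were at least 1.5-fold higher on 1 or more hypoxia arrays, and HARS and SARS at least 1.5-fold lower. Among mitochondrial enzymes FARS2, LARS2, MARS2, NARS2 and EARS2 were at least 1.5-fold lower at 12 h or 24 h, and none was 1.5-fold higher. Beside these, 7.0% of all genes past the filter were that much higher and 7.03% lower at 12 h, and 8.97% and 9.2% at 24 h. At 6 h no synthetase was 1.5-fold apart in either direction, beside 3.44% of all genes past the filter. The 6 h and 12 h differences share their normoxia array. All fold changes and log2 differences are on the scale log2(intensity + 32), which understates the change of dim genes.

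AARS, which charges alanine, had an intensity of 9778 after 6 h and 14763 after 12 h of hypoxia in shGFP cells, against 8172 in normoxia, and 21251 after 24 h, against 12336 in normoxia. Its log2 differences were 0.26, 0.85 and 0.78 at 6 h, 12 h and 24 h. All 7 hypoxia arrays, those of the knockdown lines included, lay above the normoxia array of their platform, as they did for 12.8% of the 13237 genes past the filter. CARS, the cysteine enzyme, was 606 and 989 at 6 h and 12 h, against 518 in normoxia, and 1233 at 24 h, against 741. These are log2 differences of 0.21, 0.89 and 0.71, again with 7 of 7 hypoxia arrays above normoxia. The deposited CARS value equals the mean of 2 probes on each platform, and they differed in size but not in direction: 0.49 and 1.01 at 12 h, and 0.44 and 0.77 at 24 h.

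WARS, the tryptophan enzyme and also an interferon-induced gene, was 2234 and 2560 at 6 h and 12 h of hypoxia, against 2121 in normoxia, and 3872 at 24 h, against 2366. The difference grew with time on the log2 scale (0.07, 0.27 and 0.70). At 24 h its 2 probes gave 0.29 and 0.91, so the 1.5-fold mark was passed by 1 of them. DARS, the aspartate enzyme, had its largest difference at 6 h (0.50, 0.45 and 0.16): it was 9840 at 6 h and 9512 at 12 h, against 6944 in normoxia, and 18512 at 24 h, against 16530. GARS, the glycine enzyme, had log2 differences of 0.21, 0.49 and 0.13. AARS, CARS, DARS, GARS and WARS were the 5 of 20 cytosolic genes higher at all 3 times; among 10264 genes past the filter at each time the share was 24.6%.

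Cytosolic synthetases also lay below their normoxia level. HARS, the histidine enzyme, was 2775 and 1961 at 6 h and 12 h of hypoxia, against 3177 in normoxia, and 2272 at 24 h, against 3261 (log2 differences -0.19, -0.69 and -0.51). SARS, which charges serine, also onto the tRNA on which selenocysteine is made, was 972 and 752 at 6 h and 12 h, against 896, and 934 at 24 h, against 1643. Of its 3 hypoxia differences only the one at 24 h passed 1.5-fold (log2 -0.79), and its sign at 6 h was the opposite (0.11). VARS, the valine enzyme, was at -0.19, -0.52 and -0.53, and RARS, the arginine enzyme, at -0.09, -0.46 and -0.24. With FARSA, the alpha subunit of the phenylalanine enzyme, 4 of 20 cytosolic genes were lower at all 3 times, as were 7 of 14 mitochondrial genes and 31.2% of all genes. FARSB, the beta subunit, was below the filter value on all 6 arrays of the first platform, at 92 to 118.

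**Figure D1:**
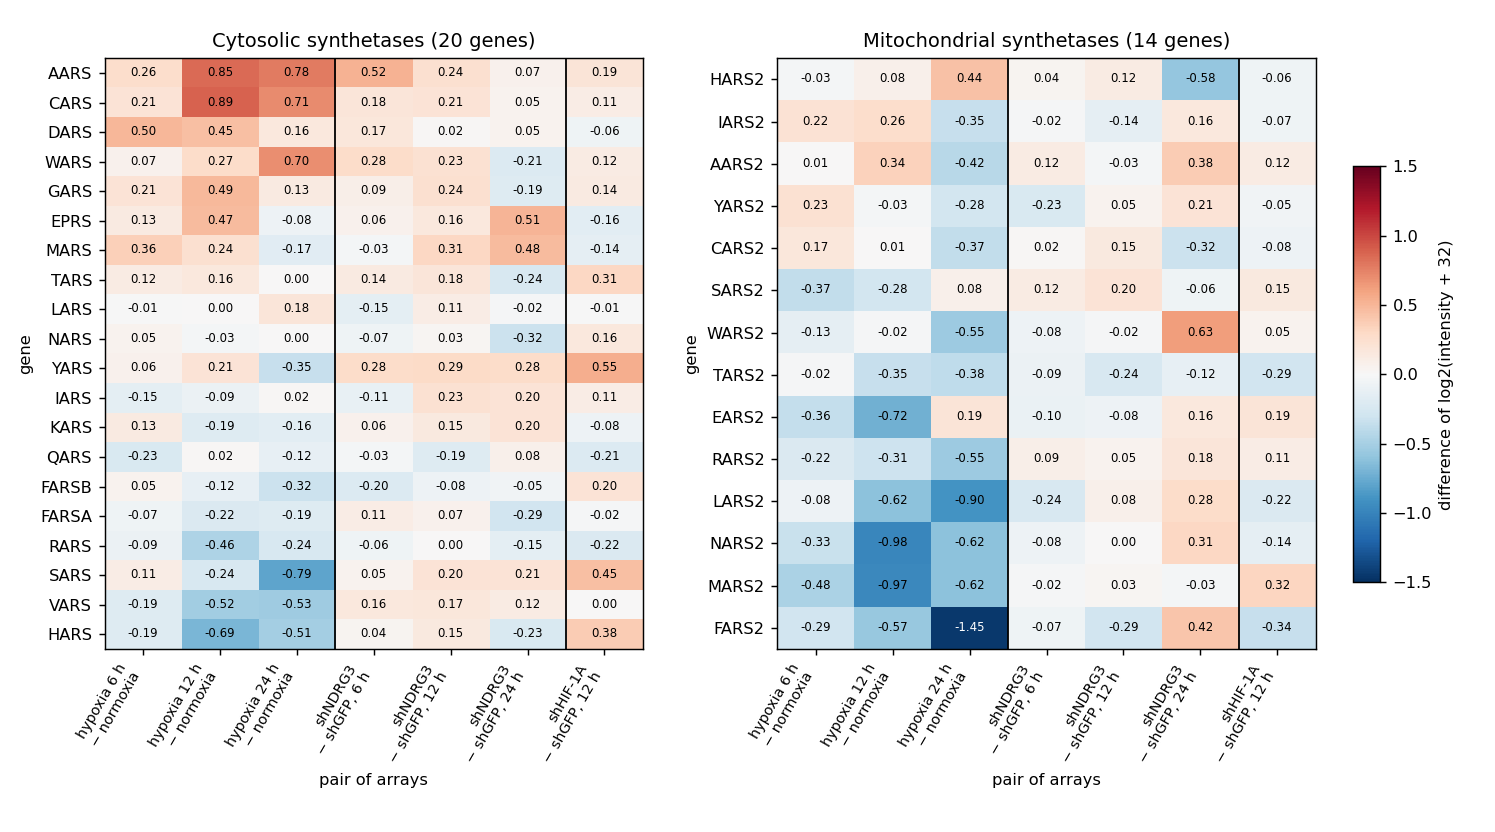
Difference of log2(intensity + 32) for each synthetase in 7 pairs of arrays: hypoxia minus normoxia in shGFP cells at 6 h, 12 h and 24 h, then shNDRG3 minus shGFP and shHIF-1A minus shGFP in hypoxia. Genes run from the highest to the lowest mean hypoxia difference; AARS and CARS stand at the top with 0.85 and 0.89 at 12 h, and FARS2 at the bottom with -1.45 at 24 h.

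Most mitochondrial enzymes lay below their normoxia level. Those higher in hypoxia were 28.6%, 28.6% and 21.4% at 6 h, 12 h and 24 h, beside 46.8%, 48.4% and 47.3% of all genes past the filter. FARS2, the mitochondrial phenylalanine enzyme, was 1019 and 834 at 6 h and 12 h of hypoxia, against 1253 in normoxia, and 680 at 24 h, against 1908. That is a log2 difference of -1.45 at 24 h, the largest of any synthetase in a pair of arrays here. NARS2, the asparagine enzyme, was 949 and 593 at 6 h and 12 h, against 1201, and 970 at 24 h, against 1510 (log2 -0.33, -0.98 and -0.62). LARS2, the leucine enzyme, was 936 and 634 at 6 h and 12 h, against 989, and 819 at 24 h, against 1555. Its differences of -0.62 at 12 h and -0.90 at 24 h both passed 1.5-fold.

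MARS2, the methionine enzyme, was 297 and 201 at 6 h and 12 h of hypoxia, against 426 in normoxia, and 415 at 24 h, against 656 (log2 -0.48, -0.97 and -0.62). The deposited MARS2 value equals the mean of 2 probes, and these did not agree. The brighter was 447 and 281 at 6 h and 12 h, against 712 in normoxia, and 585 at 24 h, against 1063. The other stayed near the filter value, at 147 and 121, against 139, and at 245, against 249. The lower level of MARS2 thus rests on 1 probe, whose differences at 12 h and 24 h were -1.25 and -0.83.

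EARS2, the glutamate enzyme, was 819 and 630 at 6 h and 12 h, against 1060 in normoxia, but 1131 at 24 h, against 991. Its log2 differences were -0.36, -0.72 and 0.19, with opposite signs at 12 h and 24 h. RARS2, the arginine enzyme, was 1141 and 1068 at 6 h and 12 h, against 1330, and 1319 at 24 h, against 1947. TARS2, the threonine enzyme, was 853 and 671 at 6 h and 12 h, against 865, and 637 at 24 h, against 838. FARS2, LARS2, MARS2, NARS2, RARS2 and TARS2 lay below normoxia on all 7 hypoxia arrays, 6 of 14 mitochondrial genes; HARS, RARS and VARS did so among the 20 cytosolic genes, and 15.8% of all genes past the filter did. HARS2 had the highest 24 h difference of the mitochondrial set (0.44), and IARS2 and AARS2 were above normoxia at 6 h and 12 h and below it at 24 h.

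**Figure D2:**
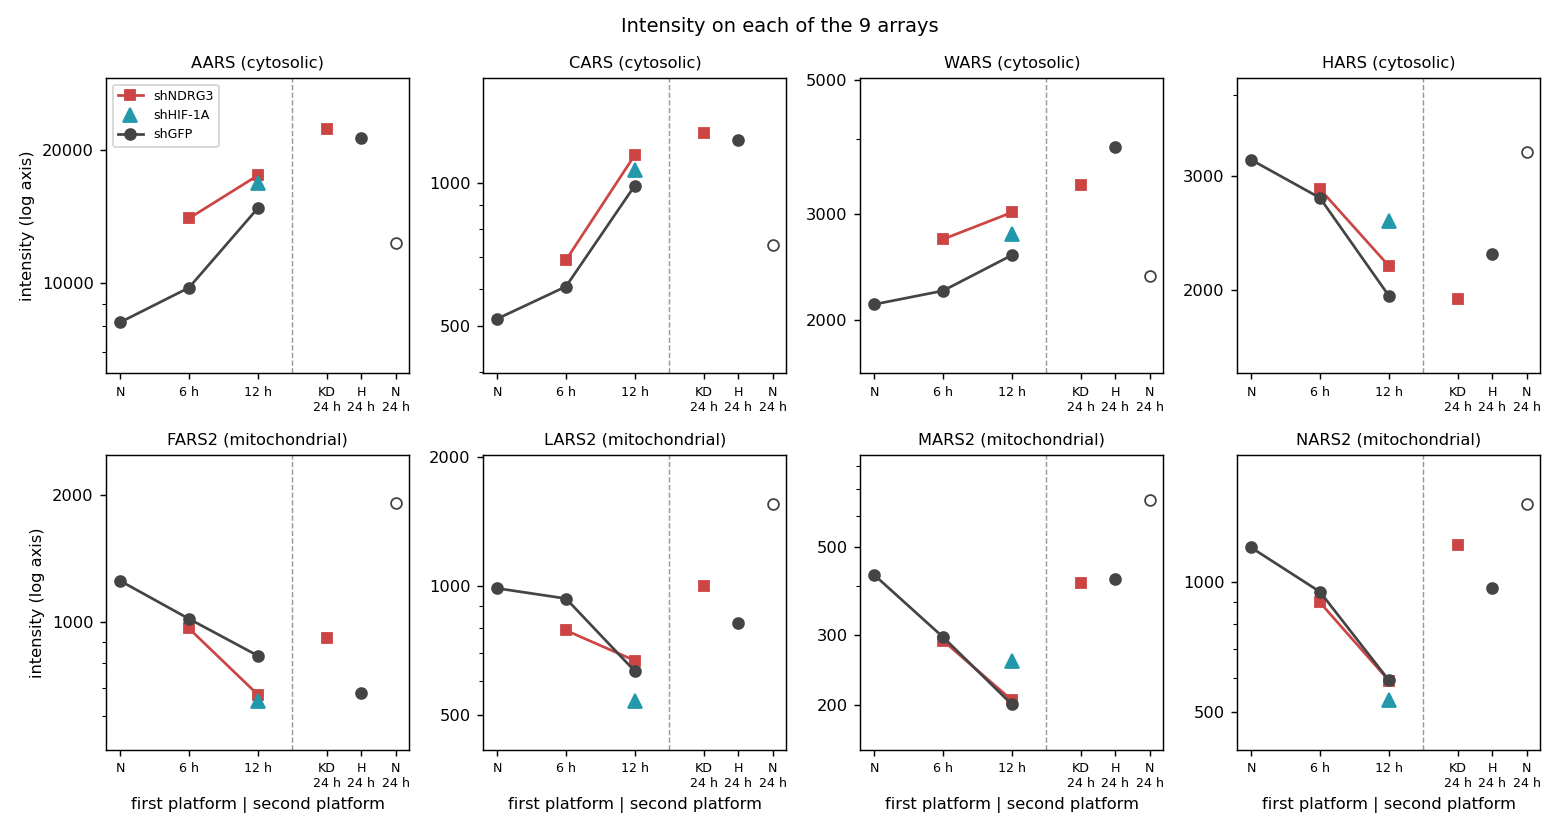
Intensity (log axis) of 4 cytosolic and 4 mitochondrial synthetases on each of the 9 arrays, with shNDRG3 as squares, shHIF-1A as triangles and shGFP as circles. Left of the dashed line are the 6 arrays of the first platform (N, normoxia); right of it are the 3 of the second, shNDRG3 in hypoxia (KD), shGFP in hypoxia (H) and shGFP in normoxia (N, open circle). AARS runs up to 17496 on the first platform, and MARS2 lies at 201 to 297 on its hypoxia arrays, below 426 in normoxia.

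The 2 classes were then set side by side. In hypoxia the cytosolic synthetases past the filter had median log2 differences of 0.07, 0.02 and -0.10 at 6 h, 12 h and 24 h, the mitochondrial ones -0.10, -0.30 and -0.40, and all genes past the filter -0.02, -0.01 and -0.03. The cytosolic median exceeded the mitochondrial one by 0.18, 0.32 and 0.30. With GARS and KARS left out the gap was 0.17, 0.32 and 0.30. At 12 h, by the 1.5-fold mark, 2 cytosolic genes stood higher and 1 lower, and 0 mitochondrial genes higher and 4 lower. At 24 h the counts were 3 and 1 among cytosolic genes, and 0 and 4 among mitochondrial genes. At 6 h, where 2.31% were higher and 1.13% lower, 0 synthetases were. Members of a class are not replicates, so the difference between the classes carries no test.

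Each mitochondrial gene was set against its cytosolic counterpart, EPRS standing for the glutamate enzyme and FARSA for the phenylalanine enzyme. The cytosolic difference was the higher in 11 of 14 couples at 6 h, in 11 at 12 h and in 10 at 24 h; in 8 couples it was so at every time. The median gap was 0.18, 0.43 and 0.42. The widest were MARS over MARS2 at 12 h (1.21), and FARSA over FARS2 (1.26) and WARS over WARS2 (1.25) at 24 h. The mitochondrial difference was the higher for HARS2 over HARS at each time (-0.17, -0.77 and -0.95), for SARS2 over SARS at 24 h (-0.88) and for IARS2 over IARS at 6 h and 12 h (-0.37 and -0.35). The other reversed gaps, of EPRS, RARS and YARS, lay between -0.26 and -0.07.

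Within the cytosolic class the 13 genes named in the literature as ATF4 targets had medians of 0.12, 0.21 and 0.00 at 6 h, 12 h and 24 h, and the others -0.08, -0.20 and -0.19. Both genes 1.5-fold higher at 12 h and all 3 at 24 h were on the ATF4 list, but so was SARS. Among the 7 with a core in the window shown above, differences at 12 h ran from 0.89 in CARS and 0.85 in AARS through GARS (0.49), MARS (0.24) and TARS (0.16) to NARS (-0.03) and IARS (-0.09). Of these 7, 2 were 1.5-fold higher at 12 h, beside 7.0% of all genes, and 2 lay below 0. The 8 enzymes of the multi-synthetase complex (DARS, EPRS, IARS, KARS, LARS, MARS, QARS and RARS), which bind each other in the cytosol, had medians of 0.06, 0.01 and -0.10. None of the 8 was 1.5-fold apart in hypoxia, while 3.44% of all genes were at 6 h and 18.2% at 24 h. At 12 h the shares of all genes were 7.0% (higher) and 7.03% (lower).

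**Figure D3:**
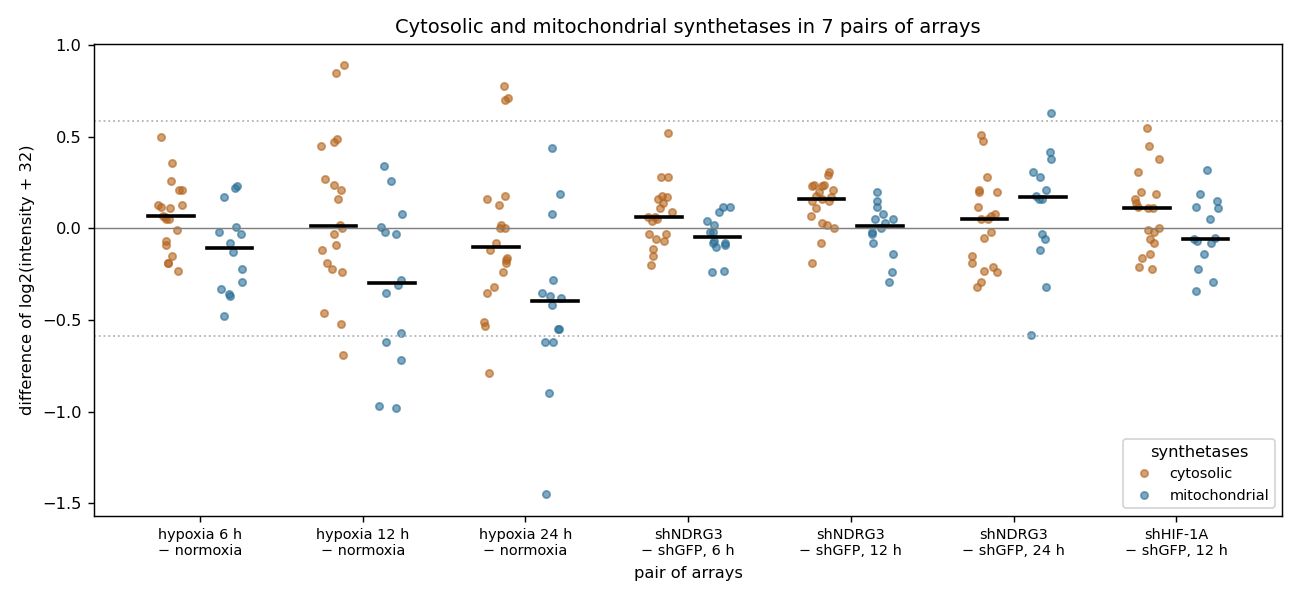
Each point is 1 synthetase gene in 1 pair of arrays, as a difference of log2(intensity + 32); cytosolic genes stand left of mitochondrial ones, black bars are medians over all genes of a class, and dotted lines mark 1.5-fold. In the 3 hypoxia pairs the mitochondrial bars lie at -0.10, -0.30 and -0.40, below the cytosolic bars at 0.07, 0.01 and -0.10.

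Across the 3 times the hypoxia term was tested in limma over the 5 shGFP arrays with platform as a block, times standing in for replicates. No synthetase passed over all 12774 genes (Benjamini-Hochberg adjusted p under 0.05), where 0.384% of genes rose and 0.0548% fell. At an unadjusted p under 0.05 limma listed 11 of the 34, 4 higher and 7 lower, beside 8.78% of all genes higher and 10.6% lower. The 4 higher were AARS (log2 0.65, SE 0.20, limma adjusted p = 0.163), CARS (0.62), WARS (0.40) and DARS (0.34). The 7 lower were FARS2 (-0.87, SE 0.24, limma adjusted p = 0.15), MARS2 (-0.68, SE 0.17, limma adjusted p = 0.137), NARS2 (-0.64), LARS2 (-0.58), HARS (-0.47), VARS (-0.43) and RARS2 (-0.39). AARS and CARS were higher at 3 of 3 times, and FARS2, MARS2, NARS2 and LARS2 lower at 3 of 3. Without the 6 h array limma called 6 synthetases, AARS and CARS as risen (0.82 and 0.80) and FARS2, LARS2, MARS2 and NARS2 as fallen (-1.01, -0.76, -0.80 and -0.80), while 7.51% of all genes passed; that fit left 1 residual degree of freedom. Without the 12 h array or without the 24 h arrays limma called 0 synthetases. At an unadjusted p under 0.05 these fits listed 6 of 34, beside 1696 of 12614 genes, and 4 of 33, beside 1298 of 11655 genes.

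The shNDRG3 line gave a second view of the step between 6 h and 12 h of hypoxia, on arrays that share none with the shGFP step. CARS was 1147 at 12 h, against 689 at 6 h, in shNDRG3 cells (log2 0.71), and 989, against 606, in shGFP cells (0.68). AARS was 17496 at 12 h, against 14004 at 6 h, in shNDRG3 cells (0.32), and 14763, against 9778, in shGFP cells (0.59). NARS2 was 592 at 12 h, against 897 at 6 h, in shNDRG3 cells (-0.57), and 593, against 949, in shGFP cells (-0.65). MARS2 (-0.44 and -0.49) and HARS (-0.39 and -0.49) were lower at 12 h than at 6 h in both lines. EPRS, which charges both glutamate and proline, and GARS were higher in both, by 0.43 each in shNDRG3 cells and by 0.34 and 0.28 in shGFP cells. From 6 h to 12 h the shNDRG3 line had 1 synthetase at least 1.5-fold higher (CARS) and 0 lower, beside 2.17% and 2.42% of all genes (4.59% either way). The shGFP line had 2 higher (AARS and CARS) and 1 lower (NARS2), beside 2.32% and 2.08% (4.4% either way). Over the 33 synthetases past the filter the steps of the lines had the same sign for 29 genes (87.9%), against 74.1% of 10891 genes. The correlation across genes was 0.88 (Pearson) and 0.87 (Spearman) for the synthetases, and 0.75 and 0.68 for all genes. Genes are not independent replicates, and the 4 arrays share a platform and its probes.

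**Figure D4:**
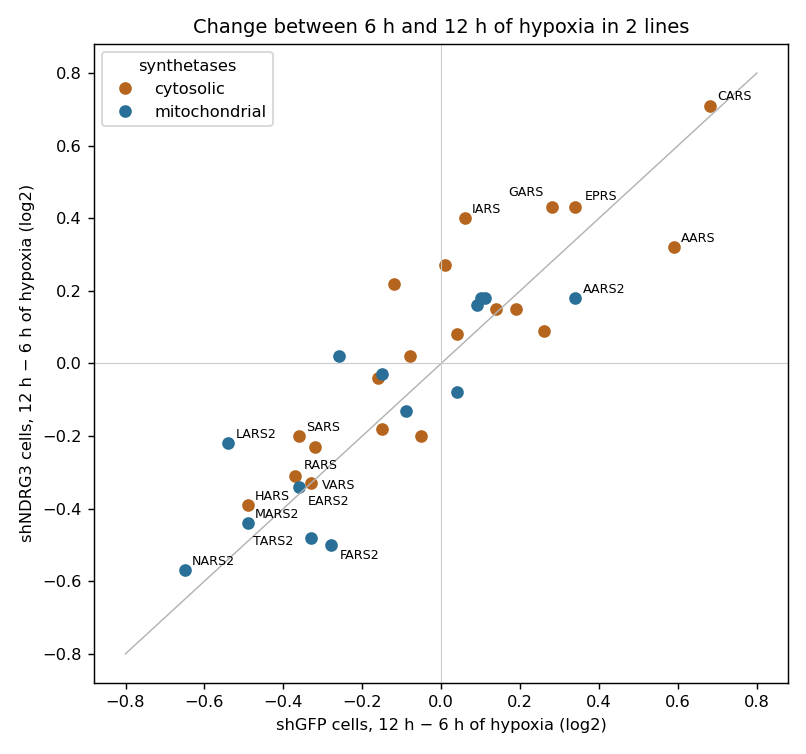
Change between 6 h and 12 h of hypoxia, as a difference of log2(intensity + 32), in shGFP cells (horizontal axis) and shNDRG3 cells (vertical axis) for all 34 synthetases, with the line of equality in grey. CARS lies at 0.68 and 0.71, and NARS2 at -0.65 and -0.57.

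Between the hypoxia differences at 12 h and 24 h, measured on separate arrays and platforms, the correlation over 33 synthetases was 0.65 (Pearson) and 0.61 (Spearman), beside 0.63 and 0.57 over 10411 genes. Their sign was shared by 21 of 33 synthetases (63.6%), a lower share than the 69.8% of all genes. For 29 of the 34 the deposited value equalled that of 1 probe, and this probe carried the same identifier on both platforms, so the change of platform brought no change of probe for them.

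Depletion of NDRG3 was examined next, in hypoxia. At each time the shGFP hypoxia array enters both these differences and the hypoxia differences above, with opposite sign. The differences were small for nearly all synthetases: at 6 h and 12 h none was 1.5-fold apart (0.847% and 1.41% of all genes past the filter were, with 0.423% and 0.654% higher and 0.423% and 0.76% lower), and at 24 h WARS2 alone was, on the higher side, beside 12.5% of all genes (5.53% higher and 6.93% lower). The cytosolic medians were 0.06, 0.17 and 0.05 at 6 h, 12 h and 24 h, the mitochondrial medians -0.05, 0.01 and 0.17, and those over all genes 0.00, 0.00 and 0.04. At 6 h 13 of 19 cytosolic synthetases past the filter and 5 of 14 mitochondrial ones were above 0, beside 50.3% of all genes. At 12 h 17 of 19, among them all 13 on the ATF4 list, and 7 of 14 were, beside 50.7%. At 24 h 11 of 19 and 9 of 14 were, beside 54.6%.

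AARS was 14004, 17496 and 22239 in shNDRG3 cells at 6 h, 12 h and 24 h, against 9778, 14763 and 21251 in shGFP cells. The gap was widest at 6 h (log2 0.52) and narrowed to 0.24 and 0.07. YARS, the tyrosine enzyme, differed by nearly the same amount at each time: 6653, 7375 and 13080 in shNDRG3 cells, against 5455, 6028 and 10789 in shGFP cells, which is 0.28, 0.29 and 0.28. EPRS was 7503, 10115 and 11736 in shNDRG3 cells, against 7178, 9079 and 8238 in shGFP cells, with its largest difference at 24 h (0.51). WARS2, the mitochondrial tryptophan enzyme, was 228 and 262 at 6 h and 12 h, against 243 and 266, but 739 at 24 h, against 466 (0.63). TARS2 was lower at each time, at 800, 564 and 585, against 853, 671 and 637. CARS (0.18, 0.21 and 0.05), RARS2 (0.09, 0.05 and 0.18), SARS (0.05, 0.20 and 0.21) and VARS (0.16, 0.17 and 0.12) were above 0 at each time. HARS2 had the lowest difference at 24 h, with 2715 in shNDRG3 cells, against 4085 in shGFP cells (-0.58). In normoxic shGFP cells at 24 h WARS2 was 696 and HARS2 3005, near their levels on the shNDRG3 array. CA9 on that array was also near its normoxia level. For these genes an effect of NDRG3 cannot be told apart from variation of single arrays. Between 12 h and 24 h, whose differences share no array, 15 of 33 synthetases kept the sign (45.5%), beside 56.8% of all genes.

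In limma over all 9 arrays, with a mean for each oxygen condition and time, 0 of the 34 passed for NDRG3, where 1 gene of 13237 (0.00755%), NDRG3 itself, fell and none rose. YARS was the 1 synthetase at an unadjusted p under 0.05 (log2 0.28, SE 0.08, limma adjusted p = 0.544), beside 8.53% of all genes (4.29% higher and 4.24% lower). AARS stood at 0.28 with an SE of 0.11 (limma adjusted p = 0.585). Without the 24 h arrays limma called AARS as risen (0.38, adjusted p = 0.0152), with 5.31% of all genes passing and 1 residual degree of freedom.

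At 12 h of hypoxia the shHIF-1A array also lay close to the control for the synthetases. None of the 33 past the filter was 1.5-fold apart, beside 6.28% of all genes (3.24% higher and 3.04% lower). This comparison shares its shGFP array with the hypoxia and NDRG3 comparisons at 12 h. YARS was 8827 in shHIF-1A cells, against 6028 in shGFP cells (log2 0.55), the largest difference of a synthetase. SARS was 1040, against 752 (0.45), and HARS 2559, against 1961 (0.38); both genes lay lower at 12 h of hypoxia in shGFP cells than in normoxia, and that shGFP array enters both differences with opposite sign. FARS2 was 651, against 834 (-0.34), TARS2 544, against 671 (-0.29), and MARS2 259, against 201 (0.32). AARS (16795, against 14763) and CARS (1068, against 989) were not lower than in control cells, with differences of 0.19 and 0.11. The cytosolic median was 0.11 and the mitochondrial one -0.06. Among genes equal to 1 probe the cytosolic median was -0.01 and the gap to the mitochondrial one 0.05, against 0.16 over all, so the direction of the cytosolic median depends on that choice. In limma 0 of 34 synthetases passed for HIF1A (0 of 13237 genes, with 1433 or 10.8% at an unadjusted p under 0.05, 6.03% higher and 4.8% lower). At that unadjusted level 2 synthetases were listed: YARS (0.55, SE 0.13, limma adjusted p = 0.237) and SARS (0.43, SE 0.14, limma adjusted p = 0.368). Without the 24 h arrays limma called YARS, SARS and HARS as risen, when 16.5% of all genes passed.

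The knockdown lines were also set against each other at 12 h, which leaves the shGFP array out. MARS was 2508 in shHIF-1A cells, against 3435 in shNDRG3 cells (log2 -0.45), and EPRS 8122, against 10115 (-0.32). All 8 enzymes of the multi-synthetase complex were lower in shHIF-1A cells, from -0.45 in MARS to -0.02 in QARS, with a median of -0.17. Of the 19 cytosolic synthetases past the filter, these 8 among them, 14 were lower, with a median of -0.10. Over all genes 5511 of 11401 were lower, with a median of 0.01. None of the 8, and none of the 33 synthetases past the filter, was 1.5-fold apart, beside 5.44% of all genes (2.67% higher and 2.77% lower). In limma the contrast of the knockdown terms gave 0 calls among 13237 genes, with 1208 (9.13%, 4.6% higher and 4.53% lower) at an unadjusted p under 0.05, of which 0 were synthetases. The lowest adjusted p of a synthetase was 0.574, for MARS2. Without the 24 h arrays limma still called 0 of 33, while 1822 of 12156 genes passed, and the lowest adjusted p was 0.0551, for MARS. At an unadjusted p under 0.05 it listed 7 of 33, beside 3286 of 12156 genes.

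Genes that work beside the synthetases were followed from lists. Of 37 genes of the integrated stress response, 4 rose in hypoxia over all genes in limma: DDIT3, DDIT4, CEBPB and STC2, beside 0.384% of all genes. Over the list the median difference was 0.23, 0.40 and 0.51 at 6 h, 12 h and 24 h, and 6, 14 and 18 genes stood 1.5-fold or more higher, beside 2.31%, 7.0% and 8.97% of all genes. Genes that much lower numbered 0, 2 and 1, beside 1.13%, 7.03% and 9.2%. ASNS, the asparagine synthetase gene and a textbook ATF4 target, was 2417 and 4790 at 6 h and 12 h, against 1618, and 12375 at 24 h, against 4941. ATF4 itself, which is controlled chiefly at translation, was 6507 and 6184, against 5499, and 11197, against 8945. The cytosolic synthetases on the ATF4 list, with a median of 0.00 at 24 h, had a smaller median than the stress list. In shNDRG3 cells the stress list had medians of 0.16, 0.26 and 0.04, and in shHIF-1A cells 0.24. The genes called in hypoxia were split in shHIF-1A cells: STC2 (-0.74) and DDIT4 (-0.18) were lower, and DDIT3 (0.49) and CEBPB (0.11) higher.

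Of the 22 tRNA charging partners 21 were matched, 20 of them past the filter, and in limma 0 rose or fell in hypoxia. The 3 with the largest mean difference over the times were MTFMT (-0.67), GATC (-0.49) and EEF1A2 (0.48). MTFMT, which formylates the mitochondrial initiator tRNA, was 658 and 394 at 6 h and 12 h, against 856 in normoxia, and 676 at 24 h, against 1037. GATC, a subunit of the amidotransferase that makes mitochondrial glutaminyl-tRNA, was at -0.28, -0.50 and -0.69. EEF1A2, an elongation factor that carries charged tRNA to the ribosome, was at 0.28, 0.83 and 0.35. XPOT, the nuclear export receptor for tRNA, differed by 0.28, 0.50 and 0.34 in shNDRG3 cells at 6 h, 12 h and 24 h.

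Mitochondrial ribosomal protein genes, which use the tRNA that the mitochondrial synthetases charge, had hypoxia medians of -0.16, -0.30 and -0.42 over 76, 76 and 75 genes past the filter. The mitochondrial synthetases, at -0.10, -0.30 and -0.40, lay near them at each time. Of the ribosomal genes 0 were 1.5-fold higher at any time, and 0, 15 and 25 were lower, beside 1.13%, 7.03% and 9.2% of all genes. In limma 0 of the 76 passed for hypoxia, and 33 were listed at an unadjusted p under 0.05, all of them lower, beside 10.6% of all genes. No test of the difference between these lists was made.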

How the data were processed

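The gene-level table and the 2 probe tables hold intensity on a linear scale, as the authors deposited them. For the scanner, software and normalization, the method is not given in the sources used. Sorted probe values differed by at most 0.0323 and 0.006 (log2) between arrays of a platform, so the deposited intensities appear quantile normalized within each platform. The lowest probe values were 58.0 and 104.7, so background had not been subtracted. For an array the precision depends on signal over background. Groups came from the sample titles.

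Values were taken as log2(intensity + 32). Genes below the 40th percentile of the platform on every compared array were left out. The terms for hypoxia (5 shGFP arrays) and for the knockdowns (9 arrays) were fitted with limma 3.58.1 in R 4.3.3 over all genes kept, with Benjamini-Hochberg adjustment. Because different times serve as replicates, the p-values reflect how 1 line varies over time and not how cultures vary. Tested on simulated data, the fits recovered 100% (hypoxia), 100% (NDRG3) and 76% (HIF1A) of genes changed by 1 on the log2 scale. They called 17, 13 and 18 unchanged genes. The simulated noise was independent between arrays and the change was the same at each time, which real arrays need not follow. In the data HIF1A itself, at -2.03 in the HIF1A term, was not called. Absence of a call thus does not show absence of change. No table of probe names was used: 29 members equalled 1 probe by value, and 4 others the mean of 2 on both platforms, while VARS was matched on the first platform alone.

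Members and lists (integrated stress response, tRNA charging partners, mitochondrial ribosome, literature ATF4 targets, cell type markers) were chosen with earlier results of these data known. Members described one by one were those with a difference of at least 1.5-fold in a pair of arrays or the largest mean difference in a comparison, with further members given to complete a class. Alternatives covered the filter, pseudocount, background, scaling, single probes and leaving out each time.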

Additional observations from a re-analysis of the deposited data

How the results depend on the processing

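No paired analysis was possible because every group is 1 array and the labels give no replicate numbers. In limma, leaving out the 6 h arrays gave 6 synthetases called for hypoxia, and leaving out the 24 h arrays gave 1 for NDRG3 and 3 for HIF1A, against 0 each with all times; these fits had 1 residual degree of freedom and called 949, 646 and 2011 of all genes, against 56, 1 and 0. For all other settings and left-out times limma called 0 synthetases. For hypoxia the calls over all genes were 148 with the 60th percentile filter, 3 with no filter, 96 with a pseudocount of 0, 7 with a larger pseudocount, 143 with background subtracted, 94 without the 12 h arrays and 90 without the 24 h arrays. The count of synthetases at least 1.5-fold apart in shNDRG3 cells at 24 h was 2 with a pseudocount of 0, 0 with the larger pseudocount and 2 with background subtracted, against 1. In hypoxia at 24 h it was 5 among genes equal to 1 probe, where 5 members drop out, against 8. The cause of the other changes was not tested. A total of 9 values changed sign, 8 of them terms that limma called neither with all times nor under the alternative. Without the 24 h arrays the hypoxia term of YARS was 0.13 (-0.07 with all times), and the NDRG3 terms were 0.10 for HARS (-0.01), -0.18 for FARS2 (0.02), -0.08 for LARS2 (0.04), -0.04 for NARS2 (0.08) and -0.05 for WARS2 (0.18). The NDRG3 term of EARS2, at -0.01, was 0.04 and 0.03 without the 6 h and 12 h arrays. The cytosolic median in shHIF-1A cells was -0.01 among genes equal to 1 probe (0.11). HIF1A could not be fitted without the 12 h arrays, which include its 1 array. The planned table of probe names was not used. The single probes of 2-probe members were compared after the data were seen.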
